A study of Sus scrofa with 5 samples.

Results

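The THSD7B and NEUROG1 cells were the cells of pig blastoids that held at least 4 unique molecular identifiers (UMIs, 1 per captured transcript) of THSD7B and NEUROG1 together. They numbered 155 of 7369 cells in blastoid library 1, a share of 2.10% with an exact binomial 95% interval of 1.79% to 2.46%. Library 2 held 140 of 8175 cells, a share of 1.71% with an interval of 1.44% to 2.02%, so that 295 of 15544 cells, 1.90%, were members in all. These intervals cover counting error only. Both libraries came from day 6 blastoids, blastocyst-like structures that form from porcine embryonic stem cells (pESCs) in iBlastoid medium. The pESCs had been derived from parthenogenetic blastocysts, which carry no paternal genome. Single-cell libraries were made with 10x Genomics chemistry from blastoids that had been selected by hand. The labels put both libraries in 1 group, so the comparisons were made between cells of the same 2 libraries, which held 289452283 and 302211552 UMIs in all barcodes.

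NEUROG1 encodes a basic helix-loop-helix transcription factor of the proneural family, which starts neuronal differentiation in the cranial placodes, the neural crest and parts of the neural tube. Proneural factors switch on NEUROD genes and Notch ligands in the same cell. The ligands keep neighbouring cells undifferentiated through Notch receptors, and the chosen cell then leaves the cell cycle and builds an axon. THSD7B encodes a membrane protein with thrombospondin repeats whose role in early development is less well described. In the pig genome (Sscrofa11.1) NEUROG1 lies at chr2:137763091-137766787 and THSD7B at chr15:14088995-15610635, both on the minus strand.

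Proneural factors bind E-boxes, and the form read CAGATG on one strand and CATCTG on the other is a preferred site of NEUROG and NEUROD proteins. The promoter window of NEUROD1 is shown because it holds this E-box and the gene is followed throughout the results. The window runs from 250 bases before the annotated gene start to 50 bases after it, 5′ to 3′ on the gene's strand in Sscrofa11.1, with the E-box in capitals. The NEUROD1 window is chr15:87179904-87180203 on the minus strand.
NEUROD1: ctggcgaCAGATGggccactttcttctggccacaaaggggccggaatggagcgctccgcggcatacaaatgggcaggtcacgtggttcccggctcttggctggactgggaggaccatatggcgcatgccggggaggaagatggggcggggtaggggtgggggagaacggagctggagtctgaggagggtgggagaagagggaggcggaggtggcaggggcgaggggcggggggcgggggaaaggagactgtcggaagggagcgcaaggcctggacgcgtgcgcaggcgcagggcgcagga
The E-box starts at position -243, counted from 1 at the first base of the gene. Of 19534 promoter windows of protein-coding genes, 14.3% held the motif on either strand. It was found in 8 of the 25 windows of the genes with the largest rise in the members, and in 13.2% of the 779 windows of all genes that rose. The share over all genes that rose was thus near the share of all promoters, and a match is only a description of the letters in the window.

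The gate genes themselves chose the cells, and their values are given as a description. Counts per 1e+06 UMIs (CPM) of NEUROG1 over the summed members were 275 in library 1 and 218 in library 2, against 1.71 and 1.51 over all other cells. THSD7B stood at 200.04 and 135 CPM in the members and at 1.63 and 1.59 CPM in the other cells. Droplets with 10 to 100 UMIs, which hold free RNA rather than cells, gave 4.27 and 7.68 CPM of NEUROG1 and 2.44 and 1.71 CPM of THSD7B. NEUROG1 alone was found in 98 members of library 1 and 80 of library 2, THSD7B alone in 9 of each, and both in 48 and 51. Of the other cells, 91.4% and 92.5% held no UMI of either gene.

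The members were not uniform, and the genes that went with the gate rose with its depth. NEUROD1, the direct successor of the neurogenins in sensory lineages, stood at 1.25 CPM in library 1 and 7.002 CPM in library 2 over the 52 and 44 cells with 3 gate UMIs, which fell just outside. Over the 23 and 31 members with 4 gate UMIs, just inside, it stood at 6.25 and 4.51 CPM. Over the 40 and 25 members with 20 or more it reached 148 and 169 CPM. The values on either side of the limit overlapped in this gene, and the high levels lay with the cells of 10 or more gate UMIs. HES6, which opposes Notch repression, stood at 50.6 and 68.3 CPM with 3 gate UMIs and at 416 and 463 CPM with 20 or more. The trophectoderm factor gene GATA3 went the other way, from 128 and 101 CPM with 3 gate UMIs to 40.5 and 59.1 CPM with 20 or more. A set of 5 genes chosen after their values were seen (NEUROD1, NEUROD4, INSM1, EBF2 and EBF3) gives the mixture in numbers of cells. None of the 5 had a UMI in 33.5% and 35.7% of members, against 91.1% and 91.6% of other cells. Among the 72 and 62 members with at least 10 gate UMIs the same share was 8.33% and 9.68%.

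**Figure D1:**
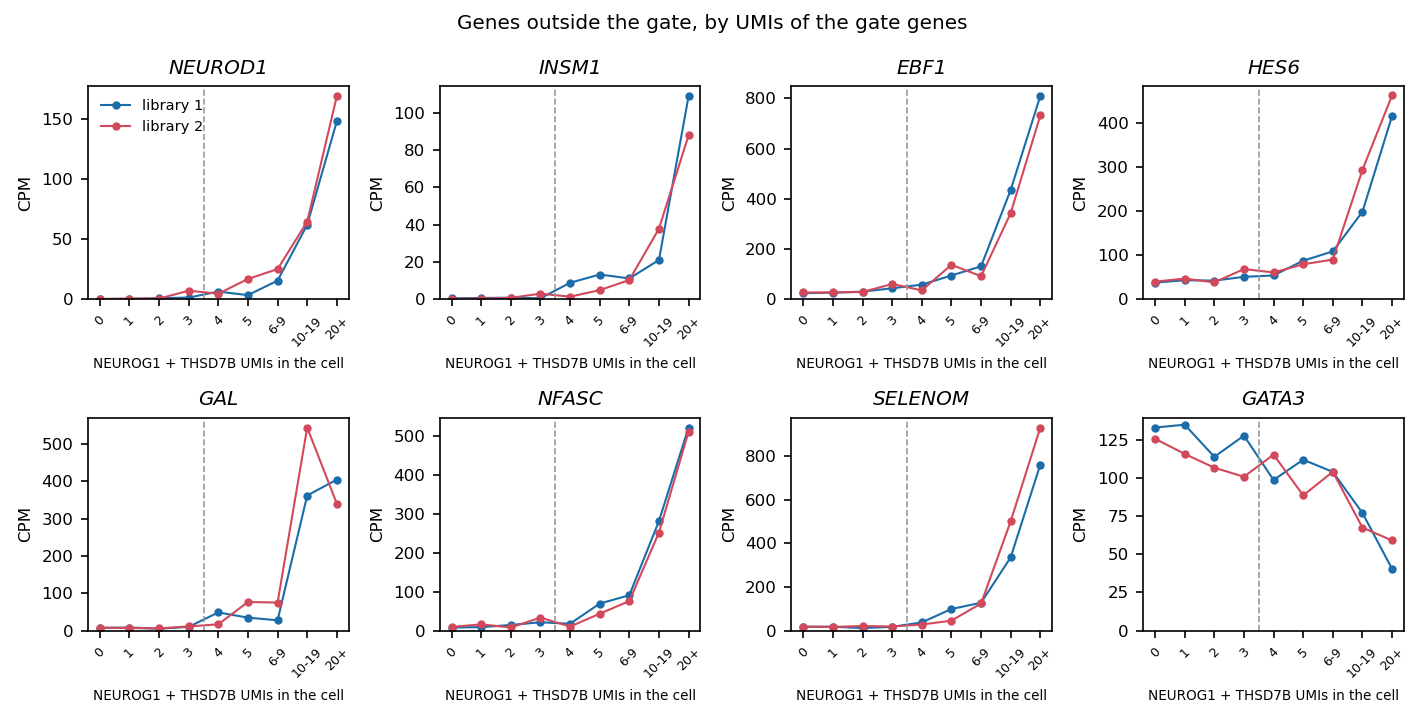
CPM of 8 genes outside the gate (y axes) over cells grouped by their summed NEUROG1 and THSD7B UMIs (x axis), with 1 line per library and a dashed line at the limit of 4 UMIs. NEUROD1, INSM1, EBF1, HES6, NFASC and SELENOM are highest at 20 or more gate UMIs in both libraries, GAL is highest at 10 to 19 in library 2, and GATA3 is lowest at 20 or more.

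Over all members the median depth lay near that of the other cells. It was 27303 UMIs a cell in library 1 and 26608.5 in library 2, against 29789 and 27603 in the other cells. Members with 20 or more gate UMIs had medians of 20521 and 17583 UMIs, and those with 4 had 27419 and 41711. What part depth has in the trend over the gate was not tested. The median mitochondrial share was 0.629% and 0.5998% in the members and 0.603% and 0.584% in the others. Cells with a high doublet score made up 9.68% and 7.86% of members against 5.81% and 6.52% of other cells, and what part doublets have in the values was not tested beyond the comparison without them. The libraries shared 9 barcodes among all cells and 0 among the members.

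To ask which other genes set the members apart, the UMIs of the members and of all other cells were summed in each library and compared over 19970 genes. NEUROD1, NEUROD4, INSM1, EBF2 and EBF3, transcription factor genes of neuronal differentiation, were more than an order of magnitude higher in the members of both libraries. Of the genes tested, 1317 were called at an adjusted p below 0.05 (edgeR quasi-likelihood test with Benjamini-Hochberg adjustment), a background of 6.59%. Those higher in the members numbered 847, or 4.24%, and those lower 470, or 2.35%. With the library as a replicate block, 2721 genes were called. The p-values measure the spread between the 2 libraries, which may be technical, since the labels do not tell whether they came from separate cultures. THSD7B and NEUROG1 had been picked as markers from these same cells, so the calls describe the genes that go with them and are no independent evidence of a cell type. A gene expressed in the members alone could pass the filter on low counts through them. The lists below are therefore counted over their tested genes, and their counts and medians are a description of the genes that passed.

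**Figure D2:**
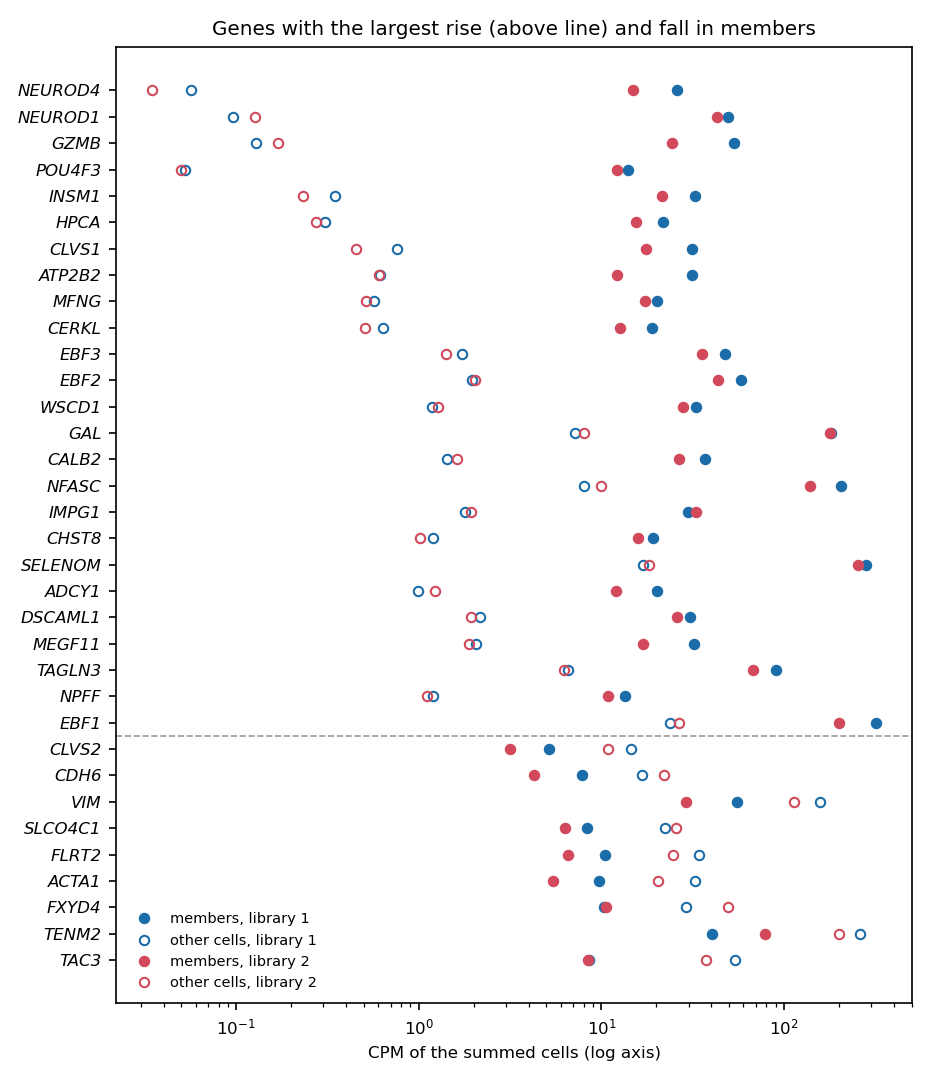
CPM of the summed members (filled) and of all other cells (open) on a log axis, by library, for the 25 genes with the largest rise and 9 of the 10 with the largest fall among called genes of at least 10 CPM in the higher group. NEUROD4 and NEUROD1 lie below 0.2 CPM in the other cells and above 10 CPM in the members of both libraries, and the falls are smaller than the rises.

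Of the 28 proneural and neuronal differentiation factors listed, 7 did not pass the filter on low counts, and 6 of those had 0 UMIs in the members. Of the 21 tested, 16 were higher in the members and 0 lower, with a median log2 fold change of 3.40 against -0.03 over all genes tested. Genes near 0 in the other cells, such as NEUROD4, could pass the filter through the members, so the count and the median are given as a description. NEUROD1 stood at 49.4 CPM in the members of library 1 and 42.8 CPM in those of library 2, against 0.0965 and 0.127 CPM in the other cells. Its log2 fold change was 8.71 ± 0.17 (SE from the fit, n = 2 libraries, edgeR quasi-likelihood adjusted p = 2.28e-06). Here and below, this SE is the size of the log2 fold change over the square root of the test's F statistic. It is not a spread taken over the 2 libraries. Both member sums lay above both sums of the other cells, which with 2 sums a side is a description. A UMI of NEUROD1 was found in 46.5% and 47.9% of members and in 0.263% and 0.212% of other cells. With every cell thinned to 9805 UMIs these shares were 29.0% and 36.4% against 0.125% and 0.124%. Collagen-expressing cells, which should lack the gene, gave 0.559% in library 1 and 0 of 483 cells in library 2, which allows a share of up to 0.621%. The median depth of these cells was 25245 and 21144 UMIs. Free RNA in empty droplets held 0.610 and 0.427 CPM of NEUROD1.

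NEUROD4, a relative that acts in neuronal commitment, stood at 25.9 and 14.9 CPM in the members and at 0.0563 and 0.0347 CPM in the other cells. This was the largest rise by the naming rule (log2 fold change 8.82 ± 0.39, edgeR quasi-likelihood adjusted p = 6.97e-05). NEUROD4 could pass the filter on low counts through the members, so its call is a description. INSM1, a zinc finger repressor of neuroendocrine cells and young neurons, stood at 32.5 and 21.5 CPM against 0.350 and 0.231 CPM. All 3 of these genes were thus near absence outside the members. The EBF genes encode factors that act beside and after the proneural factors. EBF1 was already present elsewhere and stood at 318 and 200.5 CPM in the members against 23.8 and 26.5 CPM in the other cells. EBF2 stood at 58.4 and 43.7 CPM against 1.96 and 2.03 CPM, and EBF3 at 47.5 and 35.7 CPM against 1.73 and 1.41 CPM. All 3 EBF genes rose, by 3.40, 4.72 and 4.77 on the log2 scale. SRRM4, the splicing factor of neuronal microexons, rose by 3.40 ± 0.14, from 18.6 and 19.5 CPM to 229 and 162 CPM. Smaller levels were found for NHLH1, ST18, MYT1, ONECUT1 and SCRT1, which also rose, and SOX4 and SOX11 rose by 0.51 and 0.70. SCRT1 rested on few UMIs. Members with more THSD7B than NEUROG1 UMIs held 8 of them in library 1 and 1 in library 2. Those with more NEUROG1 held 0 in both.

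Notch pathway genes that rose included ligands, modifiers, a receptor and a target. Of 25 tested, 9 were higher and 0 lower, with a median log2 fold change of 0.53. The ligand gene DLL1, a direct target of proneural factors, stood at 63.1 and 64.4 CPM in the members and at 7.14 and 6.93 CPM in the other cells (log2 fold change 3.22 ± 0.08, edgeR quasi-likelihood adjusted p = 6.58e-06). JAG1, a second ligand gene, rose by 1.16 ± 0.16. MFNG, a glycosyltransferase that modifies Notch receptors, stood at 20.2 and 17.4 CPM against 0.567 and 0.512 CPM, and LFNG of the same family rose by 1.46 ± 0.29. The receptor gene NOTCH1 stood at 26.8 and 28.6 CPM against 6.70 and 7.16 CPM, so that ligand and receptor were higher in the same sums. HES6 stood at 179 and 163 CPM against 38.2 and 40.4 CPM. HEYL, a Notch target, rose by 4.08 ± 0.35, and NUMBL, of the NUMB family of Notch inhibitors, by 2.38 ± 0.12. HES5 and HES1 were not called.

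The label given to these cells, sensory neuron-like, was set against its markers, and the data met it in part. Of the 15 markers, 2 were the gate genes and TUBB3 is no symbol of the annotation used. Of the 12 left, 6 were higher in the members, among them NEUROD1, TLX3, DRGX, STMN2 and ELAVL4, while 0 were lower and 6 were not called. POU4F1, the defining factor of somatosensory ganglia, had 1 UMI over the members of library 1 and 0 over those of library 2. It was thus at or near 0 in the members. ISL1 stood at 53.4 and 54.5 CPM in the members and at 57.6 and 44.4 CPM elsewhere, and PRPH, the peripheral neuron filament gene, at 15.0 and 17.9 CPM against 21.9 and 19.1 CPM. For this reason the cells are called by their gate genes here.

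Transcription factors of sensory neurons ranged from 0 UMIs to the level of EYA2, at 341 and 232 CPM in the members. In that list 10 of 23 tested genes were higher and 0 lower, and the median log2 fold change was 0.18. Genes near 0 in the other cells, such as POU4F3, could pass the filter on low counts through the members. This count, the median and the call of POU4F3 are therefore a description. POU4F3, best known from hair cells of the inner ear, stood at 14.1 and 12.1 CPM in the members and at 0.0523 and 0.0501 CPM in the other cells (log2 fold change 8.02 ± 0.29, edgeR quasi-likelihood adjusted p = 3.22e-05). A UMI of it was found in 35 of 155 members of library 1. PRDM12, a regulator of pain-sensing neurons, stood at 11.6 and 4.11 CPM against 0.366 and 0.408 CPM, and SHOX2 at 6.85 and 3.36 CPM against 0.462 and 0.508 CPM. TLX3, of pain-sensing and itch-sensing pathways, stood at 4.56 and 0.933 CPM in the members, and DRGX, of the same lineages, at 4.18 and 0.933 CPM. TLX3 lost its call without the members of library 1 or the other cells of library 1 (edgeR quasi-likelihood adjusted p = 0.214 and 0.0533).

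Cranial placode factors rose in part. Of 26 tested, 8 were higher and 2 lower, with a median log2 fold change of 0.17. EYA2, a coactivator that marks the placodes, stood at 341 and 232 CPM against 31.0 and 34.9 CPM, a log2 fold change of 3.16 ± 0.17. For EYA2 both member sums lay above both sums of the other cells, which with 2 sums a side is a description. EYA1, EYA4, PAX3, PAX6, TFAP2A and SOX3 also rose. PAX2, a factor of the otic placode, and SALL4 fell by 2.12 and 0.46, and PAX2 was at 0.380 and 0.373 CPM in the members.

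Among pan-neuronal genes 21 of 40 tested were higher, 0 were lower and 19 were not called, with a median log2 fold change of 0.60. TAGLN3 stood at 90.9 and 67.6 CPM in the members against 6.57 and 6.22 CPM. NEFM, a neurofilament subunit, stood at 37.3 and 30.2 CPM against 4.56 and 4.00 CPM. The growth cone gene GAP43 stood at 72.3 and 70.4 CPM against 21.3 and 23.1 CPM, and the microtubule gene MAP2 at 806 and 753 CPM against 315 and 330.1 CPM. All 4 genes rose, by 3.67, 3.02, 1.73 and 1.32 on the log2 scale. STMN2 was broadly present, with a UMI in 45.8% and 47.8% of other cells, and rose by 1.15 ± 0.08. DCX and the RNA-binding genes ELAVL2, ELAVL3 and ELAVL4 rose as well.

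Of the synaptic vesicle and transmitter genes, 4 of 36 tested were higher, with a median log2 fold change of 0.19. They were STX1A, RAB3B, SYP and SLC17A7, a vesicular glutamate transporter gene. STX1A, of the membrane fusion machinery, stood at 34.6 and 30.6 CPM against 6.98 and 7.11 CPM. SNAP25 stood at 26.8 and 22.2 CPM in the members and 22.8 and 19.7 CPM elsewhere, and SYT1 at 18.3 and 10.5 CPM against 15.2 and 13.2 CPM. Neither was called. Of the ion channels, 4 of 31 tested were higher, with a median log2 fold change of 0.12. The calcium channel gene CACNA1A stood at 120.4 and 85.3 CPM against 15.5 and 15.6 CPM (log2 fold change 2.77 ± 0.14, edgeR quasi-likelihood adjusted p = 9.84e-05). CACNA1C, CACNA1H and the mechanosensory channel gene PIEZO2 were the others. No sodium channel gene of the list was called.

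**Figure D3:**
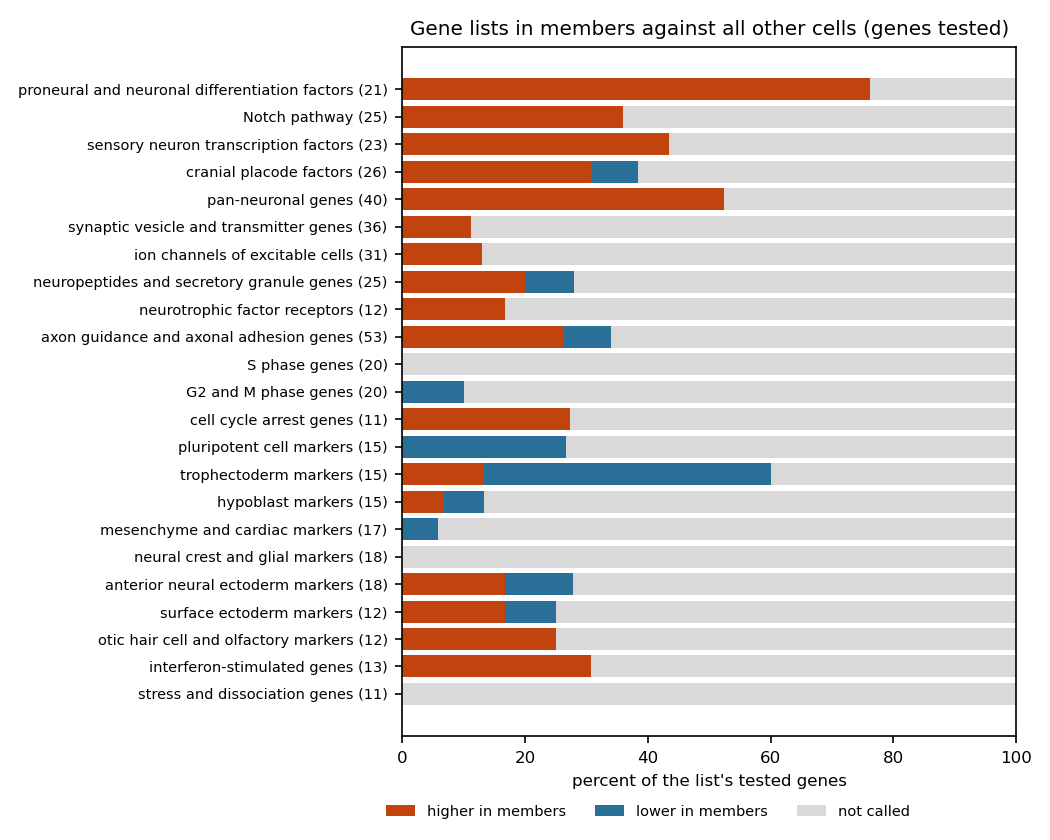
Share of each gene list that was called higher, called lower or not called in members against all other cells (x axis, percent of the genes tested, whose number stands in brackets). Proneural factors reach 16 of 21 higher and pan-neuronal genes 21 of 40, while trophectoderm markers hold 7 of 15 lower and neural crest and stress genes hold 0 called.

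GAL, the neuropeptide galanin, stood at 182 and 178 CPM in the members and at 7.14 and 8.06 CPM in the other cells (log2 fold change 4.61 ± 0.09, edgeR quasi-likelihood adjusted p = 2.28e-06). It was unevenly spread: 57 of 155 and 52 of 140 members had a UMI, and the 10 highest members held 67.8% and 67.9% of all member UMIs. SELENOM, a selenoprotein of the endoplasmic reticulum, stood at 283 and 255 CPM against 17.0 and 18.2 CPM, and its 10 highest members held 30.7% and 33.2%. A UMI of SELENOM was found in 67.7% and 62.9% of members, and also in 57.2% and 54.5% of collagen-expressing cells. In the list of neuropeptide and secretory granule genes, on which SELENOM was also put, 5 of 25 tested were higher and 2 lower. The rises were GAL, SELENOM, SCG3, NPPC and PAM, the falls were TAC3 and NPY, and the median log2 fold change was 0.11. The direction of NPY turned with the gate at 3 UMIs (log2 fold change 0.39, edgeR quasi-likelihood adjusted p = 0.683). Empty droplets held 18.3 and 20.9 CPM of GAL, above the level in the other cells. NPFF, a further neuropeptide gene, rose from 1.20 and 1.11 CPM to 13.5 and 10.8 CPM.

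Other genes among the 25 largest rises belonged to no list described above. HPCA, the calcium sensor hippocalcin, stood at 21.7 and 15.5 CPM against 0.305 and 0.273 CPM. CALB2, the calcium buffer calretinin, stood at 36.7 and 26.5 CPM against 1.42 and 1.61 CPM. ATP2B2, a plasma membrane calcium pump, stood at 31.4 and 12.1 CPM against 0.615 and 0.609 CPM. In all 3 the members of library 1 were the higher. ADCY1, an adenylyl cyclase that calcium activates, rose by 3.89 ± 0.28. GZMB, a protease of cytotoxic lymphocytes, stood at 53.2 and 24.5 CPM against 0.129 and 0.169 CPM, and its 10 highest members held 61.8% and 57.3% of the member UMIs. IMPG1, of the matrix around photoreceptors, stood at 29.7 and 33.0 CPM against 1.78 and 1.93 CPM. CERKL, a ceramide kinase relative, stood at 18.8 and 12.7 CPM against 0.635 and 0.505 CPM. CERKL lies 16073 bases downstream of NEUROD1 on chromosome 15, on the same strand and with 0 genes between, and whether reads past the end of NEUROD1 add to its count was not tested. CLVS1, WSCD1, CHST8 and MEGF11 were also among the named rises.

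Genes of axon guidance and adhesion moved both ways. Of 53 tested, 14 were higher and 4 lower, with a median log2 fold change of 0.03. NFASC, an adhesion protein of the axon initial segment and nodes, stood at 205 and 138 CPM in the members against 7.99 and 9.96 CPM (log2 fold change 4.29 ± 0.19, edgeR quasi-likelihood adjusted p = 7.3e-05). CNTN2, an adhesion protein of growing axons, rose by 4.51 ± 0.35, from 0.322 and 0.316 CPM to 9.32 and 4.85 CPM. ROBO2, a receptor for SLIT proteins, stood at 656 and 491 CPM against 156 and 151 CPM. The ligand gene SLIT2 fell by 1.49 and the netrin receptor gene UNC5C by 1.37, and SEMA3D and L1CAM were the other falls. DSCAML1, an adhesion gene named by the rule, rose by 3.82 ± 0.14. Of the 12 neurotrophic factor receptor genes tested 2 were higher, GFRA1 and KIT, and 0 lower, with a median log2 fold change of -0.04. GFRA1, which binds GDNF, stood at 66.6 and 39.6 CPM against 6.496 and 6.48 CPM.

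Of the 11 cell cycle arrest genes tested 3 were higher and 8 were not called, with a median log2 fold change of 0.24. GADD45G, a growth arrest gene, stood at 442 and 401 CPM in the members and at 56.4 and 47.3 CPM in the other cells (log2 fold change 3.06 ± 0.10, edgeR quasi-likelihood adjusted p = 2.19e-05). CDKN1C, an inhibitor of cyclin-dependent kinases, stood at 418 and 338 CPM against 134 and 143 CPM, and BTG2 rose by 0.99 ± 0.19. Of 20 S phase genes 0 were called by edgeR, with 4 at an unadjusted p below 0.05 and 2 called by DESeq2, and a median of -0.08, and of 20 G2 and M phase genes 2 were lower (CCNB2 and PLK1), with a median of -0.19. Proliferation genes such as MKI67 were present at 22.2 and 30.2 CPM in the members and 30.0 and 31.8 CPM elsewhere.

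Of 15 trophectoderm markers 7 were lower and 2 higher, with a median log2 fold change of -0.41. KRT8, a keratin of simple epithelia, stood at 3065 and 2853 CPM in the members against 4930.4 and 4518 CPM, a log2 fold change of -0.63 ± 0.07 (edgeR quasi-likelihood adjusted p = 0.0029). Empty droplets held 6727 and 5932 CPM of KRT8, more than either group of cells. GATA3 fell by 0.48, from 133 and 125 CPM to 85.6 and 94.1 CPM, with 77.4 and 77.2 CPM in empty droplets, and KRT7 and CLDN4 were the 2 that rose. Of 15 pluripotent cell markers 4 were lower and 0 higher, with a median of -0.59. POU5F1, the core pluripotency gene, stood at 33.3 and 32.3 CPM against 64.0 and 97.2 CPM, and empty droplets held 54.9 and 97.3 CPM, so its level in the members was not above that of free RNA. ZIC2, UTF1 and SALL4 fell too. NANOG was not called.

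The largest falls by the naming rule were smaller than the rises. TAC3, the peptide neurokinin B, stood at 8.56 and 8.40 CPM in the members against 53.9 and 37.2 CPM (log2 fold change -2.38 ± 0.26, edgeR quasi-likelihood adjusted p = 0.00274). TENM2, an adhesion gene, stood at 40.1 and 78.4 CPM against 261 and 201 CPM. VIM, the filament gene of mesenchyme and neural progenitors, stood at 55.5 and 29.1 CPM against 158 and 113 CPM. In each of these the groups did not overlap. FXYD4, ACTA1, FLRT2, SLCO4C1, CDH6 and CLVS2 fell by 1.58 to 1.87 on the log2 scale. FXYD4 lost its call without the members of either library (edgeR quasi-likelihood adjusted p = 0.0901 and 0.0694), and ACTA1, CDH6 and CLVS2 lost theirs without those of library 2 (0.102, 0.0506 and 0.0661).

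A first neighbouring population was the cells with at least 4 UMIs of PAX6 and KCNAB1, of which 857 and 1032 were left after members and cells of the SCRG1 and SOX10 gate had been set aside. PAX6 marks eye and forebrain ectoderm. The median depth of these compared cells was 35854 and 32430.5 UMIs, against 27303 and 26608.5 in the members. What part depth has in the differences between them was not tested. The 2 gates crossed: 32 members of library 1, 20.6%, and 41 of library 2, 29.3%, also passed this gate, and 11.9% and 12.8% of the other cells were PAX6 and KCNAB1 cells. Over 13866 genes 923 were called (edgeR quasi-likelihood test), a background of 6.66%, with 664 higher in the members (4.79%) and 259 lower (1.87%). The count was 430 without the members of library 1, and 391 and 325 without the PAX6 and KCNAB1 cells of library 1 or 2. The members were higher in 14 of 18 proneural factors tested and lower in 0, with a median log2 fold change of 2.48. The other 10 of the 28 listed did not pass the filter on low counts, which genes near 0 in the PAX6 and KCNAB1 cells could pass through the members, so this count and median are a description. NEUROD1 stood at 0.108 and 0.0241 CPM in the PAX6 and KCNAB1 cells, against its 49.4 and 42.8 CPM in the members. EBF1 was partly shared, at 60.8 and 71.8 CPM, and rose by 2.04 ± 0.19 in the members. DLL1 stood at 9.53 and 8.93 CPM in the PAX6 and KCNAB1 cells, against its 63.1 and 64.4 CPM in the members.

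Of 12 anterior neural markers tested, 5 were lower in the members, 1 was higher and 6 were not called, with a median log2 fold change of -0.95. The compared cells had been chosen by PAX6, itself on that list and left out of this count. SIX3, a factor of the anterior neural plate, stood at 20.5 and 20.2 CPM in the members against 68.9 and 70.4 CPM (log2 fold change -1.70 ± 0.10, edgeR quasi-likelihood adjusted p = 8.16e-06). RAX, the early eye field gene, and SIX6 were lower by 3.45 and 2.95 on the log2 scale, and LHX5 fell as well. LHX2 was the exception and rose by 1.46 ± 0.16. GAD2, an enzyme that makes the transmitter GABA, stood at 2.47 and 5.79 CPM in the members against 15.5 and 19.5 CPM. Of 20 G2 and M phase genes 8 were lower in the members, TOP2A, CDK1, CCNB2, CCNA2, TPX2, CENPF, KIF11 and PLK1, with a median of -0.39, and 0 of 20 S phase genes were called, with 3 at an unadjusted p below 0.05. ISL1 rose by 1.00 ± 0.13 in this comparison. Of 14 trophectoderm markers tested 1 was lower in the members and 0 higher, with a median of 0.10. PDZK1IP1, CDH6, HDC, NPAS1, DLG2, SEMA3A, CYP26A1 and SFRP2 were the remaining named falls.

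The second neighbouring population, cells with at least 4 UMIs of the crest and glial genes SCRG1 and SOX10, was small, with 41 and 44 cells, and shared 2 and 1 cells with the members' gate. Over the same 13866 genes 3207 were called (edgeR quasi-likelihood test), a background of 23.1%, with 1806 higher in the members (13%) and 1401 lower (10.1%). It was 1938 without the SCRG1 and SOX10 cells of library 1. NEUROD1 had 0 UMIs in these cells in both libraries. Against a floor of 3 counts over the 2875115 UMIs of both sums, the 46.1 CPM of the pooled members was at least 44.1-fold higher. NEUROD4 and POU4F3 were also at 0, and were at least 19.5-fold and 12.5-fold higher in the members by the same floor. In proneural factors 14 of 18 tested genes were higher and 0 lower, and the median log2 fold change was 3.29, or 2.62 with the 5 tested genes at 0 put at their floor, again a description of the genes that passed the filter. Of 15 crest and glial markers tested, 11 were lower in the members and 0 higher, with a median of -2.11. The compared cells had been chosen by SCRG1 and SOX10, both on that list and left out of this count. This count and median are therefore a description. FOXD3, a factor of the early crest, had 0.951 and 0 CPM in the members against 61.8 and 76.7 CPM. ZEB2 stood at 20.5 and 6.91 CPM against 344 and 348 CPM. Of 20 S phase genes 9 were lower in the members and 0 higher, with a median of -0.37. Of 20 G2 and M phase genes 7 were lower and 0 higher, with a median of -0.40. Of 10 surface ectoderm markers tested 8 were higher in the members and 0 lower. TP63, the factor of stratified epithelium, stood at 135 and 106 CPM in the members against 6.54 and 24.7 CPM. Of 14 trophectoderm markers tested 9 were higher in the members as well and 0 lower, with a median of 1.22.

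The members also differed among themselves. Those with more NEUROG1 than THSD7B UMIs numbered 120 and 102, those with more THSD7B 34 and 29, and ties, 1 and 9, were left out. Over 11995 genes 347 were called (edgeR quasi-likelihood test), a background of 2.89%, with 72 higher in the NEUROG1-rich members (0.6%) and 275 higher in the THSD7B-rich members (2.29%). The THSD7B-rich cells had more gate UMIs, with a median of 25.5 and 25 against 8 and 7. Their median depth was 25732 and 17583 UMIs against 28144 and 29556. The split used UMIs of the gate genes, and several neuronal genes were higher at higher gate sums, so the differences between these 2 kinds of member are given as a description. What part the gate sum has in them was not tested. The edgeR count was 0 with no filter on low counts, with 2321 genes at an unadjusted p below 0.05, and DESeq2 called 267. It was 183 and 105 without the NEUROG1-rich members of library 1 or 2, and 593 and 1540 without the THSD7B-rich members of library 1 or 2.

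Of 16 proneural factors tested 13 were higher in the THSD7B-rich members and 0 lower, and the median log2 fold change, NEUROG1-rich against THSD7B-rich, was -1.62. NEUROD1 stood at 113 and 93.0 CPM in the THSD7B-rich members and at 34.4 and 27.4 CPM in the NEUROG1-rich ones. ST18, a zinc finger gene of differentiating neurons, stood at 32.8 and 15.9 CPM against 1.89 and 2.34 CPM. Genes this low in the NEUROG1-rich members could pass the filter on low counts through the THSD7B-rich ones. The list counts and medians for these 2 kinds of member are therefore a description. Of 34 pan-neuronal genes tested 13 were higher in the THSD7B-rich members and 0 lower, with a median of -0.95. STMN2 stood at 422 and 436 CPM there against 95.03 and 117 CPM (log2 fold change -1.89 ± 0.15). ELAVL3 stood at 115 and 49.9 CPM against 8.96 and 16.6 CPM. SYT1, the calcium sensor of vesicle release, stood at 74.6 and 37.4 CPM against 4.24 and 5.15 CPM. SNAP25, CPLX2, UNC13A and SYP were higher there as well, 5 of 17 synaptic genes tested, with a median of -0.41. Among ion channels 6 of 14 were higher, with a median of -1.15, and CACNA1A stood at 403 and 284 CPM against 53.5 and 37.4 CPM.

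EYA2 and EYA4 were also higher in the THSD7B-rich members. EYA4, a placode gene known from hearing loss, stood at 24.9 and 18.1 CPM there against 0.236 and 0.468 CPM, the largest difference by the naming rule (log2 fold change -5.63 ± 0.54). SCG3, of secretory granules, and the axonal adhesion genes CNTN1 and CNTN2 were 13.1 to 14.4 times higher there. GNG8, NDST3, KIAA0408, SOGA3, NRN1 and CSMD3 were the other genes named on this side. All genes named on this side were low in the NEUROG1-rich members, where EYA4 had 1 and 2 UMIs. They could pass the filter on low counts through the THSD7B-rich members, so their fold changes are a description. The NEUROG1-rich members were higher in PAX6 and IRX3, genes of placode and neural plate progenitors, each by 1.09 ± 0.23, and in CDKN1A, a cell cycle inhibitor gene, by 1.24 ± 0.24. ISG15, an interferon-stimulated gene, stood at 248 and 192.5 CPM in the NEUROG1-rich members and at 25.9 and 20.4 CPM in the THSD7B-rich ones (log2 fold change 3.37 ± 0.22). IRX4, IFI44L, IRF9, SOD3, TTC36, C6H16orf74, TSPAN4, PLA2G4A and SOX6 were the other named genes of that side. Of 20 S phase and 20 G2 and M phase genes 0 were called between the 2 kinds of member by edgeR, with 6 and 3 at an unadjusted p below 0.05.

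**Figure D4:**
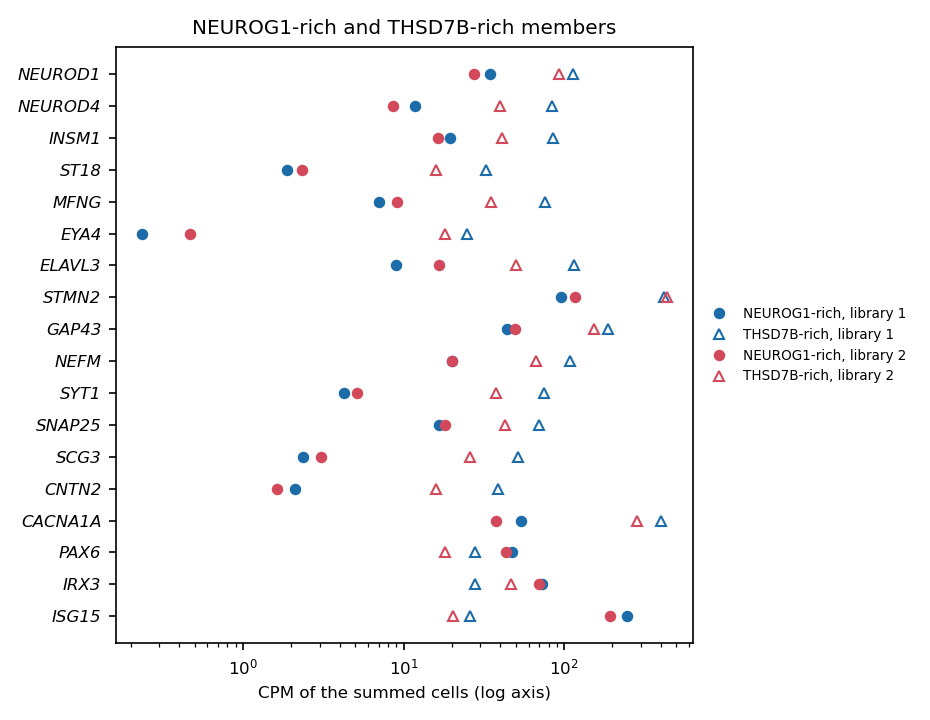
CPM (log axis) of 18 list genes in NEUROG1-rich members (filled circles) and THSD7B-rich members (open triangles), by library. From NEUROD1 to CACNA1A the triangles lie to the right of the circles in both libraries, and for PAX6, IRX3 and ISG15 they lie to the left.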

How the data were processed

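Whole-number UMI counts per gene and barcode were deposited by the authors, who used Cell Ranger 7.1.0, Seurat 4.3.0 and build susScr11 per the submitters' processing notes. The matrices held all barcodes. A barcode counted as a cell from 11223 UMIs upward in library 1 and from 9805 upward in library 2. Counts were summed per library over members, over all other cells and over the compared cells. Sums were tested in R 4.3.3 with edgeR 4.0.16 (TMM, filterByExpr, quasi-likelihood test, Benjamini-Hochberg adjustment over all genes tested, gate genes left out of counts). CPM is the summed count per 1e+06 UMIs of the same sum, and differences are log2 fold changes. Cells of 1 library are not replicates, so n is 2. Comparisons share the member sums.

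The members and the gene lists were chosen with earlier results of these data known. Named genes were the gate genes, list genes, and the 25 rises and 10 falls of greatest size (10 each way in the other comparisons) among called genes with at least 10 CPM in the higher group and 1 direction in both libraries, unnamed loci left out. Sums of the same number come from 1 library and are paired by it. Deviations of the paired sums correlated at 0.097 for members and other cells, 0.241 and 0.106 for members and the 2 neighbouring populations, and 0.111 for the 2 kinds of member.

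Scrublet, in scanpy 1.11.5, marked 1 and 0 cells by its automatic threshold, so the cells of highest score, up to 0.8% per 1000 cells, were left out only as an alternative. Collagen cells held at least 20 UMIs of COL1A1, COL1A2 and COL3A1. Further alternatives were DESeq2 1.42.0, no filter on low counts, a replicate block, each sum left out, other gates and a limit on mitochondrial share. A few genes and a promoter window are not reported here. Promoters were read from RefSeq Sscrofa11.1, in which 99.4% of 30029 gene symbols were found. Scripts were tested on simulated data. The bulk FPKM table was not used.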

Additional observations from a re-analysis of the deposited data

How the results depend on the processing

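The count of genes called in members against all other cells rose from 1317 to 2721 with a replicate block and to 2960 with the gate set on thinned cells, which left 81 and 61 members. The block kept 1316 of the 1317 calls, and gave 1088, 3399 and 513 calls in the comparisons with PAX6 and KCNAB1 cells, with SCRG1 and SOX10 cells and within the members, all within 1.5 times the main counts. Leaving out 1 sum at a time gave 1016 to 1391 calls in the first comparison, 325 (without the PAX6 and KCNAB1 cells of library 2) to 769 in the comparison with those cells (main 923), 1938 (without the SCRG1 and SOX10 cells of library 1) to 2577 with SCRG1 and SOX10 cells (main 3207) and 105 to 1540 within the members (main 347). A lone sum was then assumed to vary like the others. Gates at 6 UMIs gave 1385 calls against PAX6 and KCNAB1 cells. Within the members no filter on low counts gave 0 calls in edgeR, with 2321 genes at an unadjusted p below 0.05, and DESeq2 gave 267. The cause was not tested. With the gate on thinned cells, log2 fold changes against all other cells turned and were called for IRX3 (-0.61), NTRK2 (-0.51), IL6ST (0.39), MCM2 (-0.38) and APOA1 (-0.37). Their edgeR quasi-likelihood adjusted p was 0.00763, 0.00721, 0.0348, 0.0458 and 0.0207. Those of ISG15 (-0.27), IFIT3 (-8.08) and DDX58 (-0.042) also turned but were not called (0.700, 0.463 and 0.957). That of NPY turned with the gate at 3 UMIs (0.39) and was not called (0.683). Of the 35 named genes of the first comparison 35 kept their call on the thinned gate, without doublets and under the block, 1 lost it with the gate at 3 UMIs (ACTA1), and 1 and 4 lost it without the members of library 1 or 2. Of the 20 named genes within the members 7 lost their call without either NEUROG1-rich sum, 1 without the THSD7B-rich sum of library 1, 5 under DESeq2 and 20 with no filter. Of the 20 against the PAX6 and KCNAB1 cells 1 lost its call under DESeq2, without the members of library 1 and without the PAX6 and KCNAB1 cells of library 2.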

Other observations

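Calls in the remaining gene lists, members against all other cells, are to be read beside the 6.59% called over all genes tested. Of 18 neural crest and glial markers 0 were called by edgeR (1 at an unadjusted p below 0.05, 0 by DESeq2), with a median log2 fold change of -0.11, and of 11 stress and dissociation genes 0 were called (2 at an unadjusted p below 0.05, 0 by DESeq2), with a median of 0.02. Of 17 mesenchyme and cardiac markers HAND1 alone was called (5.88%), and fell by 1.30. The median of that list was -1.47, and its summed level was 426 and 161 CPM in the members against 835 and 483 CPM. Of 15 hypoblast markers APOE fell by 0.41, while FOXA2 rose on 8 and 4 UMIs (13.3%, median -0.41). Of 12 surface ectoderm markers TP63 and TFAP2A were higher and CLDN1 lower (25%, median -0.15). Of 12 otic and olfactory markers POU4F3, GFI1 and EBF2 were higher (25%, median 0.52), and ATOH1 stood at 0.761 and 0.187 CPM. Of 18 anterior neural markers PAX6, LHX2 and LMX1B were higher and SIX6 and RAX lower (27.8%, median -0.33). CRABP1 in that list rested on few cells: 1 member of library 1 held 584 of the 1207 UMIs.

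Of 13 interferon-stimulated genes 4 were higher in the members, ISG15, IFIT3 and DDX58 among them (30.8%, median 0.58). ISG15 stood at 205 and 173 CPM against 115 and 118 CPM, with 151 and 135 CPM in empty droplets. With the gate on thinned cells the log2 fold changes of ISG15, IFIT3 and DDX58 were -0.27, -8.08 and -0.042. None of these was then called (edgeR quasi-likelihood adjusted p = 0.700, 0.463 and 0.957), so the rises were lost but no fall is shown.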
